A study of Mus musculus with 12 samples.

Results

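Collagen chains are the genes studied here, taken as every probe set annotated to exactly 1 gene whose symbol has the form Col, a number, the letter a and a number. The rule took 82 of the 45037 probe sets that are not array controls, for 42 of 18193 genes, and used no measured value. RNA of mouse embryonic fibroblasts (MEFs), connective-tissue cells grown in culture from mouse embryos, was hybridised to Affymetrix arrays, 12 in all, with 2 arrays in each of 6 treatment groups. DMSO cells had neither AMN107 nor interferon, IFNa and IFNg cells had interferon alpha or gamma for 6 h, AMN107 cells had the inhibitor alone, and AMN107-IFNa and AMN107-IFNg cells had it before the interferon. AMN107 is the drug nilotinib, which blocks ABL kinases and also other tyrosine kinases, among them the collagen receptor DDR1. How much AMN107 was given, and for how long, is not in the labels, nor are the genotype, strain and passage of the cells or the vehicle of the interferon arms. A group's arrays are labelled biological replicates, with nothing on whether they came from separate cultures, so the p-values measure only the spread between these arrays.

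Collagens are proteins of the extracellular matrix in which 3 chains wind into a triple helix. Fibrillar chains assemble outside the cell into the fibres that give skin, tendon and bone their strength, and fibroblasts are their main makers. Basement membrane chains form or anchor the thin sheets under epithelia and around vessels and muscle, and the remaining types make beaded filaments, short networks, or coats and links on fibres and cell membranes. In the pathway to a fibre, chains are hydroxylated and folded in the endoplasmic reticulum, trimmed outside the cell and crosslinked by lysyl oxidases.

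A gene was represented by its brightest probe set and tested where that probe set exceeded the array's median signal on at least 2 of the 12 arrays. Of the 42 collagen genes, 27 were tested: 8 fibrillar, 6 of basement membranes and 13 of other types. The 15 not tested were Col2a1, Col11a1 and Col24a1 among the fibrillar chains, Col4a3, Col4a4 and Col15a1 of basement membranes, and Col6a5, Col8a2, Col9a2, Col13a1, Col14a1, Col17a1, Col19a1, Col23a1 and Col26a1. Their signals ran from 1.92 to 22.7 on all arrays, against array medians of 20.6 to 22.7, so no difference was looked for in them. Col2a1 is the main collagen of cartilage, Col17a1 belongs to epithelial anchoring structures, and Col4a3 and Col4a4 to the kidney's filter. Since a dim probe set passes only where it is bright enough, the tested genes do not stand for all 42. Differences below are log2 ratios of signal + 8.66 with the SE of the limma fit and 2 arrays a group, folds are ratios on the same scale, and "called" means a limma p adjusted over all 12192 tested genes that is under 0.05. Signals of different probe sets were not set against each other.

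The arrays differed in ways that bear on dim genes. The 2% trimmed mean of the signal was 100.4 and 101.3 in DMSO, 105 and 106 in IFNg, 108 and 113 in IFNa and 108 to 111 on the 6 arrays with AMN107, while the 25th percentile was 9.15 and 9.21 in DMSO and 8.37 to 8.71 with AMN107. IFNa replicate 2 stood apart, with a 5'/3' ratio of the GAPDH control probe sets of 0.0252 against 1.07 to 1.16 on the other 11 arrays. The SD over all tested genes of the log2 difference between replicates was 0.401 in IFNa and 0.119 to 0.144 in the other groups, and over the collagen genes it was 0.278 against 0.0721 to 0.141. Of 10 fibroblast markers 7 were tested, with Vim at 2786 to 4816, whereas Lum, Postn and Thy1 stayed under 14.5 on all arrays, so the cells lacked a clear signal for these 3 markers. The summed fibroblast list was 8748 to 10502 without AMN107 and 6891 to 7164 with it. That sum moved with S100a4, at 5168 and 5193 in DMSO and 2255 and 2173 with AMN107 alone. Vim, the other bright member, read 2823 and 2786 in DMSO and 3764 and 3862 with AMN107 alone. With AMN107 alone S100a4 (-1.22, SE 0.07) and Pdgfrb (-1.29, SE 0.17) fell while Fn1 and Twist1 rose (limma adjusted p at most 0.0299). Among markers of other cells, the leukocyte gene Ptprc (3.94 to 5.20), the epithelial Cdh1 (2.55 to 3.43) and the endothelial Pecam1 (9.01 to 12.01) stayed below the array medians. Other members of those lists were above them on all arrays, such as Cd14 (114 to 172), Epcam (50.7 to 89.0) and Kdr (34.1 to 55.8). Of 10 leukocyte, 7 epithelial and 8 endothelial markers, 3, 3 and 2 were tested. The summed list of 7 epithelial markers was 156 to 206 without AMN107 and 127 to 152 with it (Epcam -0.61 and Krt8 -0.71), that of 10 leukocyte markers 315 to 343 and 272 to 335, and that of 8 endothelial markers 112 to 139 and 114 to 125. The sum of 8 cartilage and bone markers was 123 to 148 and 147 to 164, and that of 8 muscle markers 159 to 203 and 170 to 191. That of 5 fat markers was 71.1 to 91.0 and 88.3 to 115, and that of 6 neuronal markers 191 to 515 and 260 to 892. The neuronal sum moved with Tubb3, which was 1.29 higher with AMN107 alone and brightest with IFNg. Tubb3 read 25.1 and 32.5 in DMSO, 356 and 339 in IFNg, and 692 and 572 in AMN107-IFNg. The part of these shifts in the collagen differences was not tested. In RNA from whole cultures, fewer cells of a type and less RNA per cell cannot be told apart.

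With AMN107 alone, 9 collagen genes fell and 2 rose against DMSO. Col3a1, the chain of type III fibres in skin, vessels and early scars, fell 4.98-fold, the largest change among the 27, and Col8a1, a short-chain network collagen of vessel walls and the cornea, fell 1.56-fold. Col5a2 and Col16a1 rose 1.36-fold and 1.27-fold. The 11 called genes of 27 stand beside 34.8% of all tested genes called (14% lower and 20.7% higher), and the median difference was -0.17 over collagen genes and 0.02 over all tested genes. By class, 4 of 8 fibrillar genes fell and 1 rose (median -0.32), none of the 6 basement membrane genes was called (median 0.04), and 5 of 13 other genes fell and 1 rose (median -0.21). Both AMN107 arrays lay below both DMSO arrays for 18 collagen genes and above them for 3, against 36.7% and 42.7% of all tested genes.

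**Figure D1:**
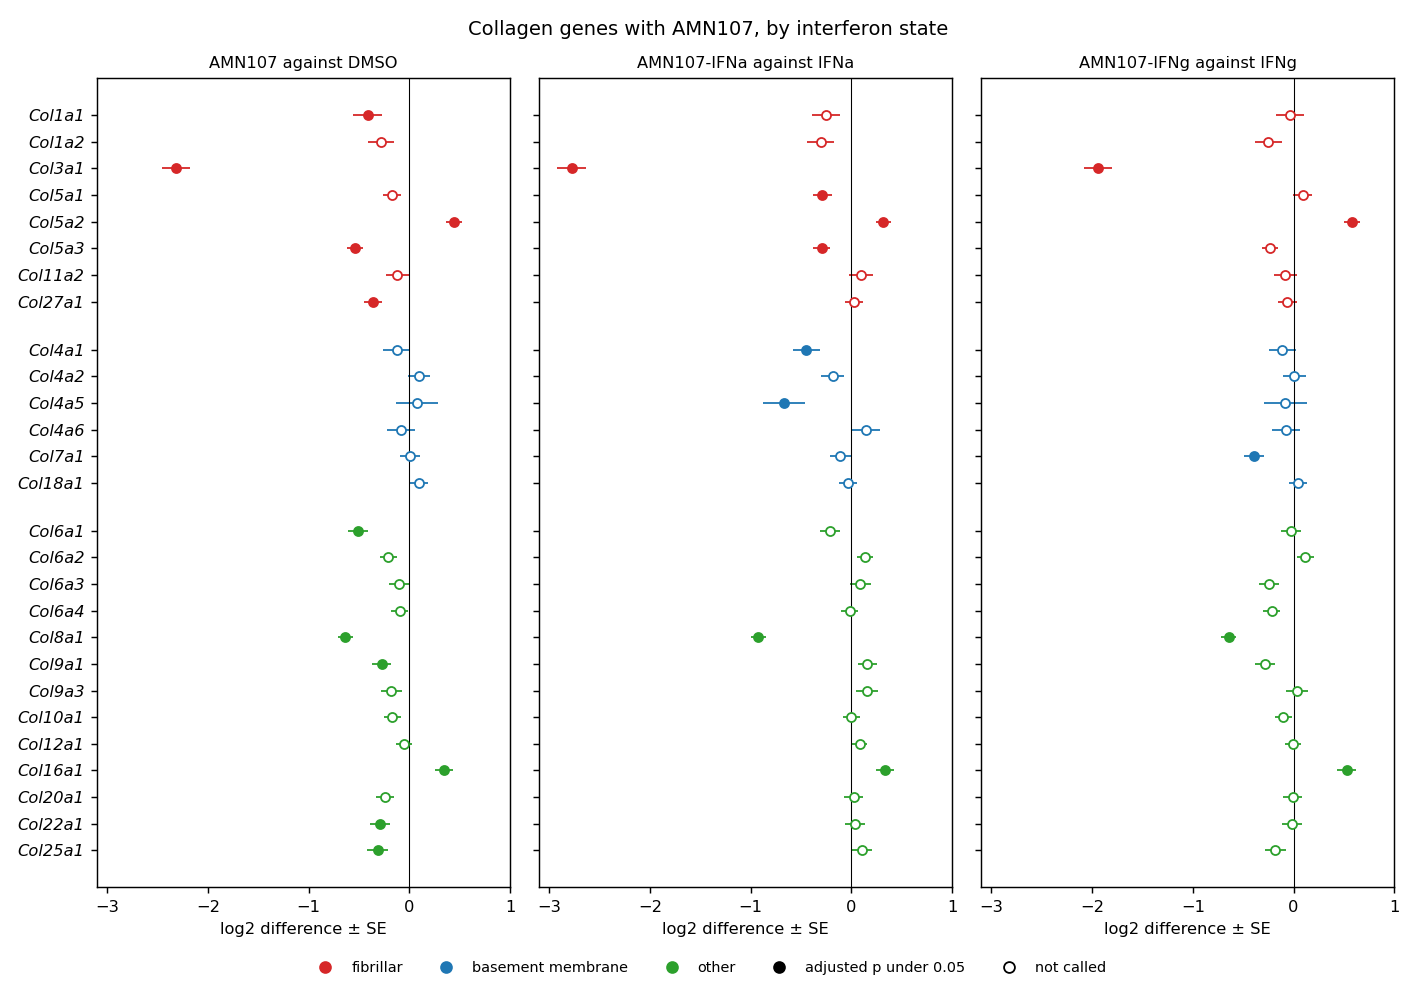
Log2 difference with its SE (horizontal axis) for each of the 27 tested collagen genes (vertical axis, by class) in the AMN107 comparison without interferon, with IFNa and with IFNg; filled points have a limma adjusted p under 0.05. Col3a1 lies far left in the 3 panels at -2.31, -2.78 and -1.94, Col8a1 is also lower in each, and Col5a2 and Col16a1 are to the right of 0 in each.

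Genes were also divided at a mean signal of 100, and with AMN107 alone dim genes were lower more often than bright ones, over all genes and among collagens. All 16 collagen genes under 100 were lower with AMN107 alone (median -0.23, 7 called), where 62.3% of all tested genes under 100 were lower (median -0.10). Of the 11 brighter collagen genes 5 were lower (median 0.01, 2 called lower and 2 higher), where 36.1% of all brighter genes were lower (median 0.11). With IFNg present, 14 of the 16 dim collagen genes were lower, against 59.5% of all dim genes, and none of the 16 was called. With IFNa present the order was the other way: 5 of 16 dim and 9 of 11 brighter collagen genes were lower, against 47.8% and 53.9% of all tested genes at those levels. Arrays with AMN107 had the lower 25th percentile given above, and its part in the dim genes' differences was not tested. The other scalings kept more collagen genes lower than higher with AMN107 alone: 10 lower and 1 higher with quantile normalization, 14 and 1 after scaling to a common trimmed mean, and 5 and 2 after centring on the median. Scaling to the trimmed mean moved the median of all tested genes from 0.02 to -0.10 in that comparison.

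The same question asked in cells that had interferon uses other arrays for both sides. AMN107-IFNa against IFNa gave 6 lower and 2 higher of the 27 (26% of all tested genes called, 14.7% lower and 11.3% higher), with a median of -0.00 over collagen genes and -0.01 over all. AMN107-IFNg against IFNg gave 3 lower and 2 higher (19.1% called, 5.76% lower and 13.4% higher), with medians of -0.08 and 0.01. Under trimmed mean scaling the latter split was 5 lower and 2 higher (19% of all tested genes called). These 3 comparisons share no array, though they share 1 estimate of the spread. Col3a1 and Col8a1 fell in each of the 3, as did 359 genes or 2.94% of all tested, and Col5a2 and Col16a1 rose in each, as did 756 genes or 6.2%. Col5a3 was called in 2 of them, 10 genes in 1, and 12 genes in none.

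The promoters of Col3a1 and Col8a1, which fell, and of Col16a1, which rose, are shown from 250 bases before to 50 after the RefSeq start on GRCm38.p6, 5' to 3' on the gene's strand. Capitals mark CCAAT (the CCAAT box), TATAAA (the TATA box) and GGGCGG (the GC box bound by Sp1-type factors), read on either strand, so that a GC box on the opposite strand appears as its reverse complement. Col3a1 lies at chr1:45311288-45311587 on the plus strand, Col8a1 at chr16:57754688-57754987 on the minus strand, and Col16a1 at chr4:130047590-130047889 on the plus strand.
Col3a1: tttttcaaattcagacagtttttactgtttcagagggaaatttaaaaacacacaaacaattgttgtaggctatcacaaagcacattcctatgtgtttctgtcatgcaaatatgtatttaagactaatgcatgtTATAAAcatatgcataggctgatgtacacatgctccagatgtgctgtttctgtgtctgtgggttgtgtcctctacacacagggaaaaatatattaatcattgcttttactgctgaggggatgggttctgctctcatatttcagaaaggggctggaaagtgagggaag
Col8a1: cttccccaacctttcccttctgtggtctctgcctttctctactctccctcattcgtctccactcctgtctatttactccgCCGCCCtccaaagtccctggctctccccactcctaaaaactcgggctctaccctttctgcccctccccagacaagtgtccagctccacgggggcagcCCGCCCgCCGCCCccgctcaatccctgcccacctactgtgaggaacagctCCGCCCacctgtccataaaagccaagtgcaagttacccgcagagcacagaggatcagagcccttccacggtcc
Col16a1: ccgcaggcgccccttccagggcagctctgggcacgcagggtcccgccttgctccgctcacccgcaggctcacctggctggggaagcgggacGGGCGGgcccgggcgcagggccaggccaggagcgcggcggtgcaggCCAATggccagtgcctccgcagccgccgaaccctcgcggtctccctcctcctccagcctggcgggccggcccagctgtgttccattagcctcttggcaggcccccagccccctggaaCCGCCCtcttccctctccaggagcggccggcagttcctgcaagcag
The Col3a1 window held 1 TATAAA, 117 bases before the start, and neither of the other motifs. That of Col8a1 held 4 GC boxes, all on the opposite strand, 170, 73, 66 and 23 bases before the start. In the Col16a1 window a CCAAT box stood 113 bases before the start, with GC boxes 159 bases before it and 4 bases after it. The table held windows for 33 of the 42 collagen genes and 22 of the 27 tested. Of the 25 windows of tested collagen genes, 11 held CCAAT, 3 TATAAA and 17 GGGCGG, against 37.4%, 13.6% and 35.7% of all 32851 windows of the same length. The motif of AP-1 factors, TGANTCA, was in 1 of the 25 (Col6a1) and in 7.8% of all, and that of STAT factors, TTCNNNGAA, in 0 of the 25 and in 8.3% of all. A match is only a run of letters, and these motifs overlap in no base with each other in the windows shown.

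Col3a1 gave signals of 617 and 567 in DMSO, 831 and 948 in IFNa, and 654 and 471 in IFNg. With AMN107 its signals were 107 and 117 alone, 125 and 119 with IFNa, and 141 and 136 with IFNg. The 6 arrays with AMN107 lay far below the 6 without it, and the ranges did not overlap. With AMN107 alone the fall was 4.98-fold (log2 -2.31, SE 0.14, limma adjusted p = 3.36e-06), with IFNa 6.86-fold (log2 -2.78, adjusted p = 1.76e-06) and with IFNg 3.83-fold (log2 -1.94, adjusted p = 1.64e-05). Its second, dimmer probe set read 27.6 and 29.9 in DMSO, 46.4 and 76.3 in IFNa and 30.9 and 24.3 in IFNg, and between 8.01 and 11.3 on the 6 arrays with AMN107. That probe set also fell, with differences of -1.14, -1.90 and -1.06 (limma adjusted p = 0.00137, 0.000132 and 0.00355). Its signals with AMN107 are at the level of the added 8.66, which makes these differences smaller than the ratio of the signals.

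**Figure D2:**
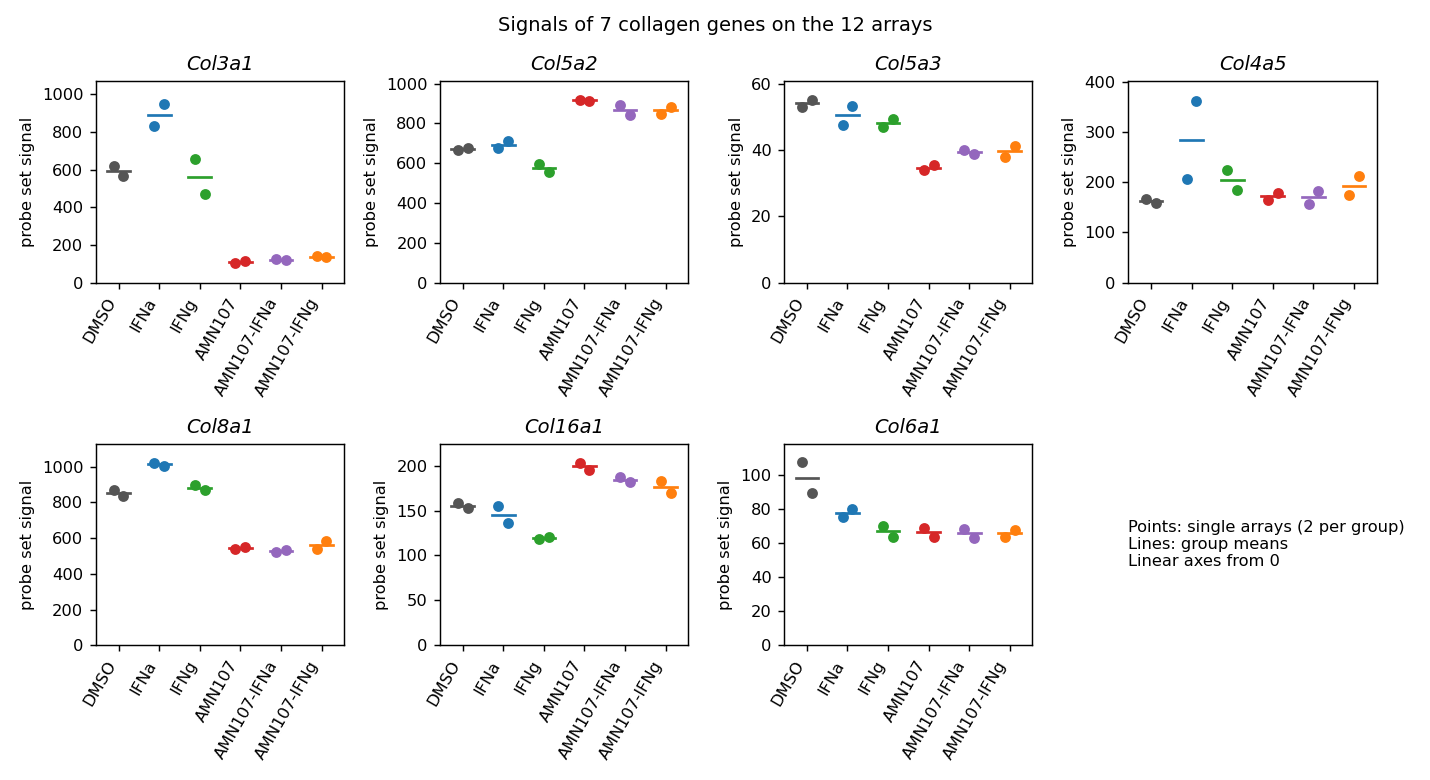
Probe set signal on a linear axis from 0 (vertical) on each of the 12 arrays, by group (horizontal), for the 7 collagen genes called with a log2 difference of at least 0.5 in 1 comparison or more; points are arrays and lines are group means. Col3a1 and Col8a1 are lower on every array with AMN107 than on any without it, Col5a2 and Col16a1 higher, and Col4a5 is set apart by 1 IFNa array at 362.

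Col5a2, a chain of type V collagen that sits inside type I fibres and limits their width, is the next protein-coding gene to Col3a1 on chromosome 1, and its change was opposite. It read 669 and 675 in DMSO, 677 and 711 in IFNa, and 598 and 557 in IFNg. With AMN107 it read 920.0 and 914 alone, 892 and 842 with IFNa, and 849.6 and 883 with IFNg. Every array with AMN107 was above every array without it. Col5a2 rose by 0.44 (SE 0.08, limma adjusted p = 0.00192), by 0.32 with IFNa (adjusted p = 0.0131) and by 0.58 with IFNg (1.49-fold, adjusted p = 0.000649). A dimmer probe set of Col5a2 gave 0.56 (adjusted p = 0.00479), 0.21 (not called, adjusted p = 0.214) and 0.56 (adjusted p = 0.00842).

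Col5a3, another type V chain, behaved otherwise. Its signals were 53.2 and 55.3 in DMSO, 47.7 and 53.5 in IFNa and 46.9 and 49.4 in IFNg. They were 33.9 and 35.5 with AMN107, 40.0 and 39.0 with IFNa added, and 38.1 and 41.3 with IFNg added. The arrays with AMN107 were again all below those without. Col5a3 fell by 0.54 (SE 0.08, 1.45-fold, limma adjusted p = 0.000883) and by 0.30 with IFNa (adjusted p = 0.0219), and with IFNg the difference was -0.23 (adjusted p = 0.0684). Col5a1, the chain that type V molecules cannot form without, gave -0.17, -0.29 and 0.09, of which the value with IFNa was called (limma adjusted p = 0.0412), while its other 2 tested probe sets each gave 0.00 with AMN107 alone.

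Type I collagen, the main fibre of skin and bone, moved less. Col1a1 gave signals of 53.8 and 42.9 in DMSO and 36.3 and 31.8 with AMN107, and fell by 0.41 (SE 0.14, limma adjusted p = 0.0458). The call was kept in 11 of 23 alternatives (limma adjusted p from 0.00157 to 0.286), and without DMSO replicate 1 the value was -0.27. Col1a2, its partner chain, was 433 and 415 in DMSO and 336 and 358 with AMN107, without overlap. Its differences of -0.28, -0.31 and -0.25 were not called (limma adjusted p from 0.118 to 0.216), whereas a dimmer probe set was called at -0.43 (adjusted p = 0.0101) and, with IFNa, at -0.52 (adjusted p = 0.00541). Col27a1, a fibrillar chain of cartilage, fell by 0.36 with AMN107 alone (adjusted p = 0.012), and its other tested probe set gave -0.05. Col11a2 was not called in any of the 9 comparisons.

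Basement membrane chains showed little change with AMN107 alone. Differences ran from -0.12 (Col4a1, 95% interval -0.42 to 0.17) to 0.10 (Col4a2, -0.15 to 0.34), with Col18a1, the source of endostatin, at 0.09 (-0.11 to 0.29). Col4a5 had the widest interval, -0.39 to 0.55 around 0.08. These intervals leave room for changes of the size called in other collagens, so the chains are not shown to be unaffected. Col7a1, the anchoring fibril collagen, was called only with IFNg, where it fell by 0.39 (SE 0.10, limma adjusted p = 0.0215). Col4a6 was not called in any comparison.

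Col4a1 and Col4a2 encode the chains of the common type IV network and lie head to head on chromosome 8, with 20 bases between their starts and promoter windows that share 78 bases. With IFNa present Col4a1 fell by 0.45 (SE 0.13, limma adjusted p = 0.0328) and Col4a2 gave -0.19 (adjusted p = 0.249). The IFNa arrays read 585 and 835 for Col4a1 and 275 and 338 for Col4a2, replicate 2 being the higher for each. Without IFNa replicate 2 the Col4a1 value was -0.20. The call was kept in 11 of 23 alternatives. It was lost without single arrays of groups other than IFNa, in its groups alone and with array weights. A dimmer Col4a1 probe set gave -0.18, -0.13 and -0.10 in the 3 AMN107 comparisons, none called.

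Col4a5, a type IV chain that pairs with Col4a6 or with the kidney chains, varied most in IFNa. It read 166.5 and 158 in DMSO, 207 and 362 in IFNa and 225 and 185 in IFNg. With AMN107 it read 165 and 178.5 alone, 157 and 182 with IFNa, and 174 and 212 with IFNg. Only IFNa replicate 2, the array with the low GAPDH ratio, stood far from the rest. Col4a5 was called higher with IFNa (0.73, SE 0.21, limma adjusted p = 0.0439) and lower in AMN107-IFNa against IFNa (-0.67, adjusted p = 0.0401), and these comparisons share the IFNa arrays. Without IFNa replicate 2 the values were 0.34 and -0.28, neither called. Over 23 alternatives the calls were kept in 6 and 10, with limma adjusted p up to 0.31 and 0.26.

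Among the other types, Col8a1 changed most with AMN107. Its signals were 870.5 and 836 in DMSO, 1019 and 1006 in IFNa and 895 and 868 in IFNg. With AMN107 they were 540.1 and 551 alone, 522 and 536 with IFNa, and 540.2 and 583 with IFNg. The 2 sets of 6 arrays did not overlap. Col8a1 fell by 0.64 (SE 0.08, limma adjusted p = 0.000218), by 0.93 with IFNa (1.90-fold, adjusted p = 4.12e-05) and by 0.64 with IFNg (adjusted p = 0.00031). Its probe sets disagreed: a second one fell by 0.29, 0.61 and 0.57 (adjusted p from 0.00226 to 0.0462), and the dimmest, at 21.9 to 40.8, gave 0.25, 0.11 and -0.28, none of them called.

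Col16a1, a chain that coats thin fibrils, rose with AMN107. It read 158 and 153 in DMSO, 155 and 136 in IFNa and 118 and 121 in IFNg. The AMN107 arrays read 203 and 195 alone, 187 and 182 with IFNa, and 182 and 169 with IFNg. All 6 arrays with AMN107 were above the 6 without. Col16a1 rose by 0.34 (SE 0.09, limma adjusted p = 0.0151), by 0.33 with IFNa (adjusted p = 0.0223) and by 0.53 with IFNg (1.44-fold, adjusted p = 0.00279). The call with AMN107 alone was lost under quantile normalization (0.14) and trimmed mean scaling (0.22), and without any 1 of its 4 arrays, and its limma adjusted p over 24 alternatives ran from 0.000567 to 0.31.

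Col6a1, a chain of the beaded filaments that surround cells, stood out in DMSO. Its signals there were 107 and 89.3, against 75.3 and 79.7 in IFNa and 69.8 and 63.7 in IFNg. With AMN107 they were 68.9 and 63.7 alone, 68.3 and 63.1 with IFNa, and 63.7 and 67.3 with IFNg. The 2 DMSO arrays were above the other 10. With AMN107 alone Col6a1 fell by 0.51 (SE 0.10, 1.42-fold, limma adjusted p = 0.00368) and by 0.50 with IFNg alone (1.41-fold, adjusted p = 0.0125), comparisons that share the DMSO arrays. AMN107 gave -0.21 (adjusted p = 0.147) in IFNa and -0.02 (adjusted p = 0.9) in IFNg cells. Without DMSO replicate 1 the IFNg value was -0.38 and not called, and over 24 alternatives its limma adjusted p ran from 0.000665 to 0.13. Col6a2, its neighbour on chromosome 10, and Col6a3, the other chains of the same molecule, gave -0.21 (adjusted p = 0.0717) and -0.10 (adjusted p = 0.447) with AMN107 alone.

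The remaining calls among other types with AMN107 alone were of dim genes, Col22a1 (-0.29, limma adjusted p = 0.0419), Col25a1 (-0.31, adjusted p = 0.0384) and Col9a1 (-0.28, adjusted p = 0.0473). Col22a1 marks tissue junctions, Col25a1 is a membrane collagen of neurons and Col9a1 coats cartilage fibrils. None of the 3 was called with IFNa or IFNg present, and none kept its call when arrays were centred on the median. Col6a4, Col9a3, Col10a1, Col12a1 and Col20a1 were called in none of the 9 comparisons.

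IFNa alone changed 6 of the 27 collagen genes, 3 in each direction, where 17.6% of all tested genes were called (4.7% lower and 12.9% higher). The median was -0.13 over collagen genes and 0.04 over all. Col3a1 rose by 0.58 (SE 0.14, 1.49-fold, limma adjusted p = 0.0317), Col4a5 by 0.73 and Col8a1 by 0.24 (adjusted p = 0.0496). Col25a1 fell by 0.41 (adjusted p = 0.0346), Col27a1 by 0.36 (adjusted p = 0.0346) and Col9a1 by 0.31 (adjusted p = 0.0494). These last 3 genes were also called lower with AMN107 alone, in a comparison that shares the DMSO arrays. The dimmer probe set of Col3a1 rose by 0.87 (adjusted p = 0.027). All 16 dim collagen genes were lower and 1 of the 11 brighter ones was, against 61.7% and 31% of all tested genes at those levels.

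These IFNa calls depended on single DMSO arrays and on arrays outside the comparison, which enter it only through the shared spread. Those of Col4a5, Col25a1, Col27a1 and Col9a1 also depended on single IFNa arrays, whereas those of Col3a1 and Col8a1 did not. Without IFNa replicate 2 Col3a1 gave 0.48 and Col8a1 0.25. Col4a5 then gave 0.34, Col25a1 -0.26, Col27a1 -0.29 and Col9a1 -0.35. Without DMSO replicates 1 and 2 in turn, Col3a1 gave 0.64 and 0.52, and Col8a1 0.27 and 0.22. Over 23 alternatives the Col3a1 call was kept in 12 and that of Col8a1 in 5. A fit of the 2 groups alone, and one with array weights, each called 0 collagen genes (0.287% and 0.689% of all tested genes called). The directions depended on scaling: quantile normalization gave 0 higher and 4 lower, trimmed mean scaling 1 and 8, and median centring 3 and 2. In these fits 8.6%, 15% and 27% of all tested genes were called, with medians of -0.05, -0.08 and 0.12 over all.

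IFNg alone lowered Col6a1 and Col16a1 (-0.36, SE 0.09, limma adjusted p = 0.0344) and raised no collagen gene, where 9.05% of all tested genes were called (2.93% lower and 6.12% higher). The median was -0.09 over collagen genes and -0.03 over all. Col3a1 differed by -0.09 (95% interval -0.40 to 0.22), and its IFNg arrays, 654 and 471, lay on either side of DMSO. Col5a2 gave -0.22 (adjusted p = 0.109) and was called under quantile normalization (-0.29) and trimmed mean scaling (-0.28). The dimmest tested probe set of Col8a1 was higher with IFNg (0.54, adjusted p = 0.00979), where the brightest gave 0.05.

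**Figure D3:**
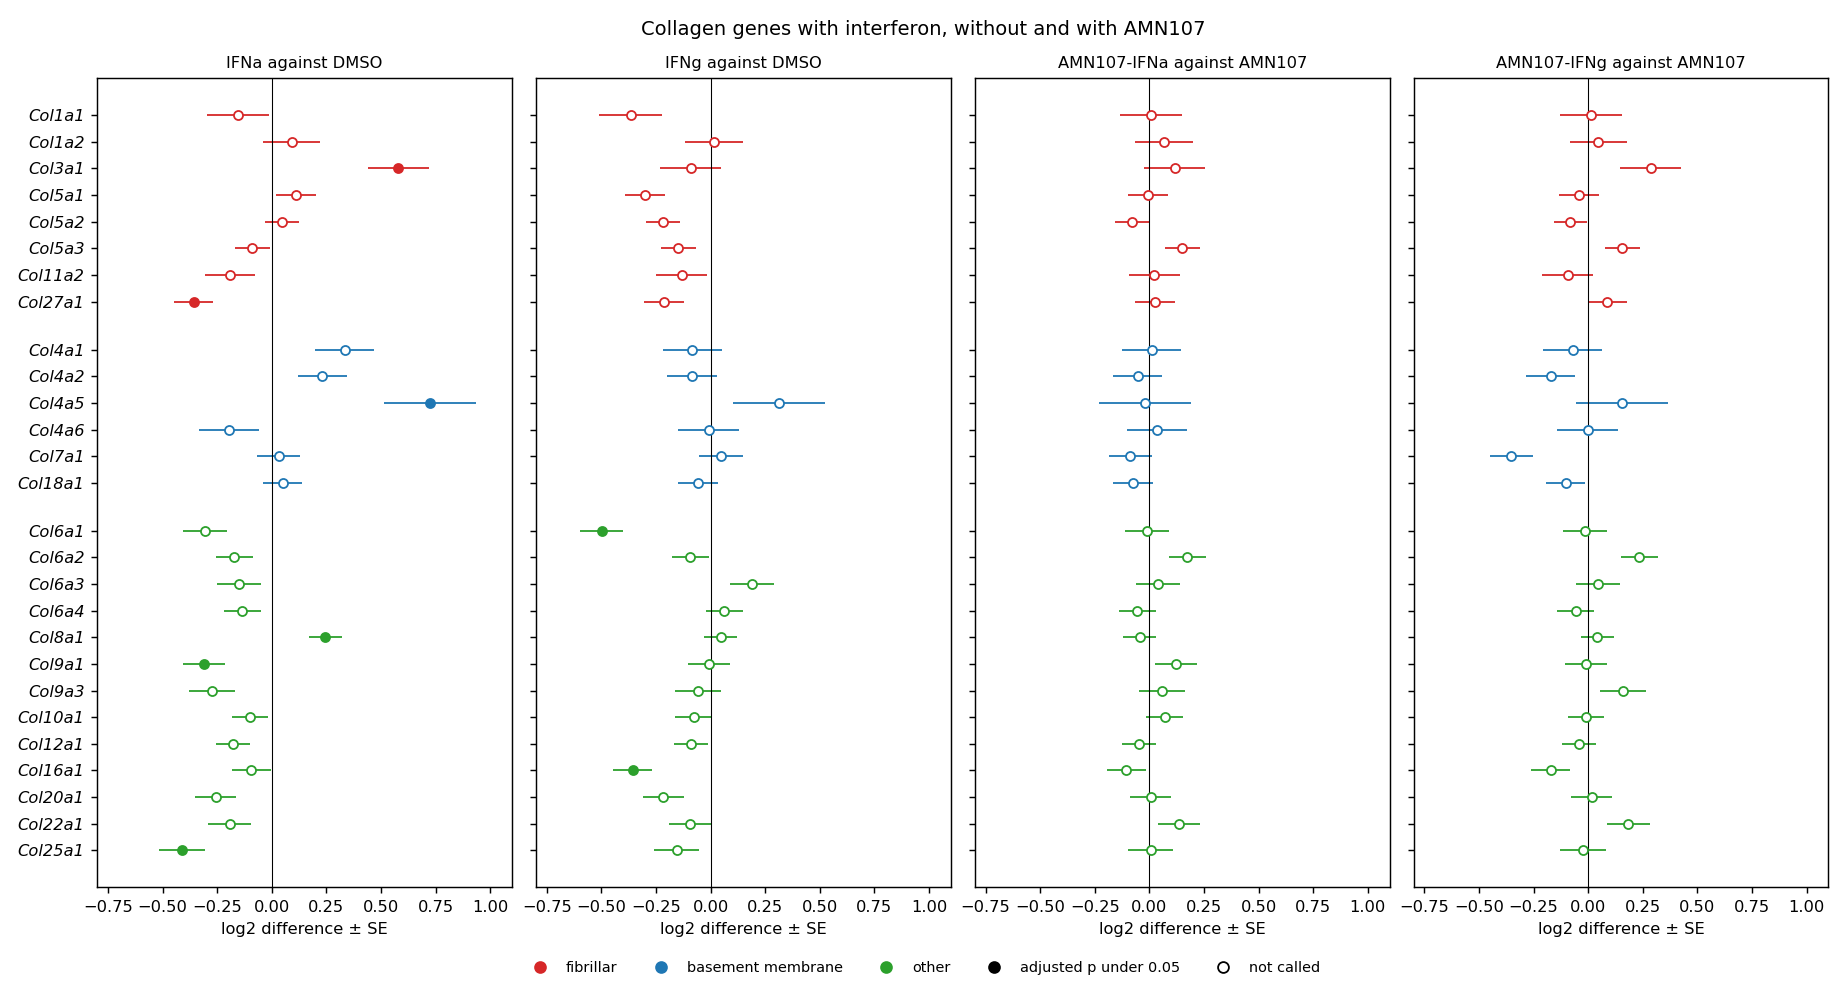
Log2 difference with its SE (horizontal axis) for the 27 tested collagen genes (vertical axis, by class) with IFNa or IFNg, without AMN107 (left pair of panels) and with it (right pair); filled points have a limma adjusted p under 0.05. Filled points appear in the left pair alone, 6 with IFNa and 2 with IFNg.

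In cells given AMN107, no collagen gene was called after either interferon. AMN107-IFNa against AMN107 gave 0 of 27 by limma (0.254% of all tested genes called), 0 with an unadjusted p under 0.05, and AMN107-IFNg against AMN107 gave 0 (2.59% called) and 2. An unadjusted limma p under 0.05 was found for 2.88% and 9.18% of all tested genes in these comparisons. Col3a1 differed by 0.12 (95% interval -0.20 to 0.43) and 0.29 (-0.02 to 0.60), and Col8a1 by -0.04 (-0.21 to 0.12) and 0.04 (-0.13 to 0.21). Col7a1 had the lowest adjusted p with IFNg, 0.141, at -0.35.

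The interferon effect was not shown to differ between cells with and without AMN107 for any collagen gene. The interaction with IFNa called 0 of 27 by limma (0.205% of all tested genes called), with 9 at an unadjusted p under 0.05, and that with IFNg called 0 (1.03%), with 5. An unadjusted limma p under 0.05 was found for 23.1% and 12.6% of all tested genes in these interactions. For Col3a1 the interactions were -0.46 (adjusted p = 0.201) and 0.38 (adjusted p = 0.477). For Col6a1 with IFNg it was 0.48 (adjusted p = 0.167). Calls in the interaction with IFNa, over collagen genes and over all tested genes, depended on which IFNa array was kept. Without IFNa replicate 1, which leaves only replicate 2 with its low GAPDH ratio in that group, the Col3a1 value was -0.56. Without either IFNa array or both, which enter that contrast only through the shared spread, the Col6a1 interaction with IFNg was called at 0.48.

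**Figure D4:**
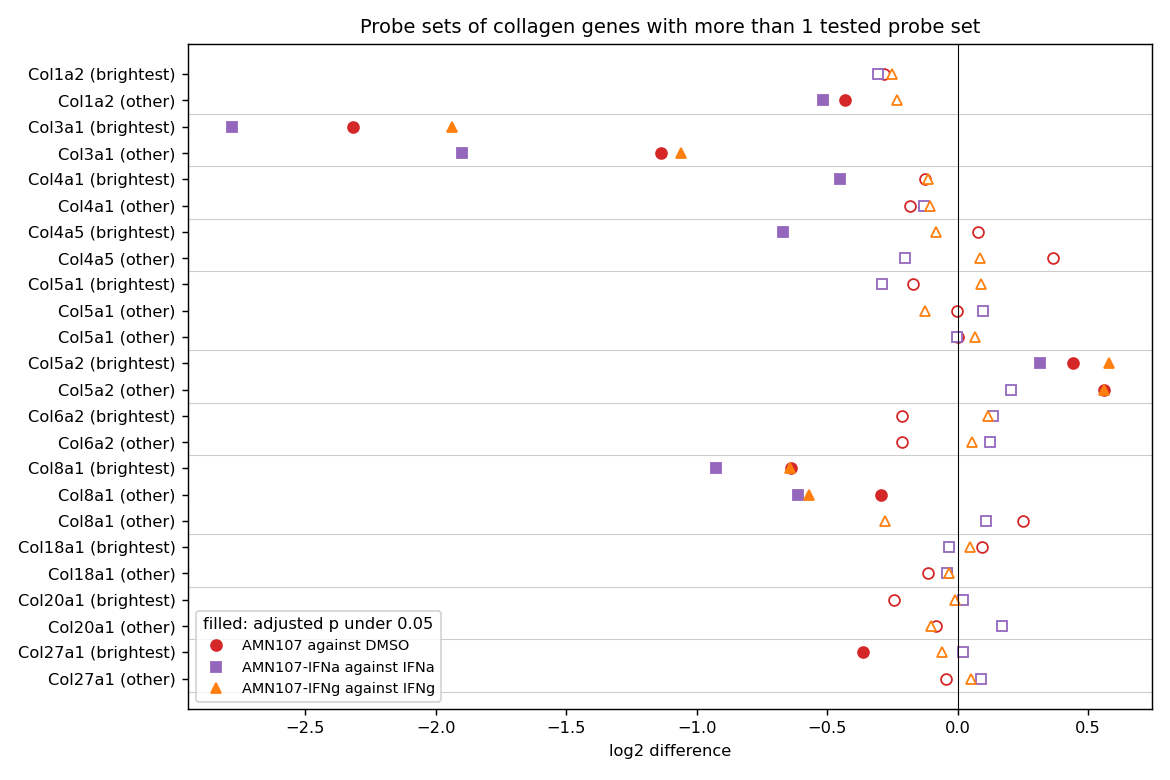
Log2 difference (horizontal axis) of each tested probe set of the 11 collagen genes with more than 1 (vertical axis), in the 3 AMN107 comparisons; filled points have a limma adjusted p under 0.05. The 2 Col3a1 probe sets are lower in all 3 comparisons, at -2.78 to -1.06, whereas the 3 of Col8a1 lie on both sides of 0 with AMN107 alone and with IFNa and below 0 with IFNg.

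Of the 40 tested probe sets, 24 belonged to 11 genes with more than 1. With AMN107 alone all probe sets of a gene had the same sign in 8 of the 11 genes, with IFNa present in 9 and with IFNg present in 7. The median distance between a gene's highest and lowest probe set was 0.17 with AMN107 alone, and the widest was 1.18, for Col3a1. The 42 probe sets not tested stayed at or under 22.8 on all arrays.

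Genes that act on collagens were called in both directions with AMN107, as were genes at large. Over all tested genes 20.7% rose and 14% fell with AMN107 alone, 11.3% and 14.7% with IFNa, and 13.4% and 5.76% with IFNg. These shares stand beside the AMN107 counts of this list and of the lists below. Of 18 tested genes (20 on the array) for folding and modification in the endoplasmic reticulum, 4 rose and 1 fell with AMN107 alone, 3 and 2 with IFNa, and 4 and 2 with IFNg. The median of that list with AMN107 alone was 0.14, beside 0.02 over all tested genes. Crtap (0.78, SE 0.10) and P3h1 (0.60, SE 0.16), partners in prolyl 3-hydroxylation, rose with AMN107 alone, as did P4ha2, a prolyl 4-hydroxylase subunit (0.42), and Mia3, which loads collagen for export (0.62, limma adjusted p at most 0.0155 for these 4). Creb3l1, a factor that drives collagen genes from the endoplasmic reticulum, fell by 0.35 (limma adjusted p = 0.0261). It was dim, at 27.2 and 27.7 in DMSO and 20.1 and 19.4 with AMN107 alone, where the array medians were 21.5 and 21.3. Serpinh1, the collagen chaperone HSP47, differed by 0.13 (adjusted p = 0.456).

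Outside the cell, 4 of 7 tested genes (11 on the array) for processing and crosslinking fell with AMN107 alone and 1 rose (median -0.26), 4 fell with IFNa, and 3 fell with IFNg. Pcolce, which speeds the removal of the procollagen tail, fell by 0.55, 0.75 and 0.70 in the 3 comparisons (SE 0.10, limma adjusted p at most 0.00277). The lysyl oxidases Loxl4 (-0.57, -0.98 and -1.03) and Loxl1 (-0.26, -0.48 and -0.49) fell in each too. The crosslinking enzyme Tgm2 fell by 0.56 and 0.51, and gave -0.19 (adjusted p = 0.471) with IFNg. Pcolce2 rose with AMN107 alone (0.49, adjusted p = 0.00193).

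Of 8 tested genes (18 on the array) for proteins bound to fibrils, 2 rose and 2 fell with AMN107 alone (median -0.11), 1 fell with IFNa, and 1 rose and 2 fell with IFNg. The proteoglycan Bgn fell by 0.64, 0.75 and 0.47 (SE 0.08, limma adjusted p at most 0.0023), and fibronectin, Fn1, rose by 0.65 and, with IFNg, by 0.70. Of 10 tested basement membrane partners (14 on the array), 1 rose and 2 fell with AMN107 alone (median 0.10), 2 rose and 1 fell with IFNa, and 2 rose with IFNg. Agrn, a heparan sulphate proteoglycan, rose by 0.49, 0.33 and 0.60 (adjusted p at most 0.0317), and Hspg2, perlecan, fell by 0.35 with AMN107 alone (adjusted p = 0.0151).

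Of 6 tested collagen receptors (11 on the array), 1 rose and 2 fell with AMN107 alone (median -0.13), 2 fell with IFNa, and 1 rose and 2 fell with IFNg. Ddr1, the receptor kinase that fibrillar collagens activate, fell by 0.96, 1.04 and 0.81 (SE 0.09, limma adjusted p at most 0.000259). Mrc2, which takes up collagen for breakdown, fell by 0.32 in each of the 3. Of 19 tested genes of TGF-beta signalling and collagen transcription, 5 rose and 2 fell with AMN107 alone (median 0.13), 1 rose and 1 fell with IFNa, and 2 and 2 changed with IFNg. Smad7, the inhibitor of the pathway, rose by 0.49, 0.38 and 0.48 (adjusted p at most 0.0129), and Ccn2, a TGF-beta and YAP target, rose by 0.54 and 0.64 but gave -0.09 with IFNa. Tgfbr2, the type II receptor, fell by 0.46 and 0.77 and gave -0.28 (adjusted p = 0.213) with IFNg.

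With interferon alone, IFNa raised 5 of 18 tested genes of the folding list (median 0.28) and none of the 7 processing or 8 fibril-bound genes. It raised 3 of 10 basement membrane partners (2 fell), 1 of 6 receptors and 5 of 19 genes of the TGF-beta list. Over all tested genes 12.9% rose and 4.7% fell with IFNa, whose arrays include replicate 2 with the low GAPDH ratio. IFNg raised 1 gene each of the folding, processing, fibril-bound and receptor lists, none of the basement membrane list, and 2 of the TGF-beta list, where 2 fell. Over all tested genes 6.12% rose and 2.93% fell with IFNg. Tgm2 (0.79, limma adjusted p = 0.0163) was the processing gene that rose with IFNg, and Itgb1, the integrin beta 1 chain of the main collagen receptors, rose by 0.56 (adjusted p = 0.00508).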

How the data were processed

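The deposited table holds linear probe set intensity values for 12 arrays, made by the authors with MAS5 per the submitters' processing notes; its version, scaling and background settings are not given in the sources used here. Of 45101 probe sets, 64 array controls were left out. Annotation gave 1 gene to 34945, several to 932 and none to 9160, and symbols were checked by gene ID in RefSeq for 34741 (0 changed). Signals were taken as log2(signal + 8.66), with no further scaling, and 24363 probe sets above the array median on at least 2 arrays were kept, 12192 genes by their brightest. limma 3.58.1 in R 4.3.3 (lmFit, eBayes with trend, checked on simulated data) fitted 6 group means to all 12 arrays, with 9 contrasts, 2-sided tests and Benjamini-Hochberg adjustment over all 12192 genes. Other probe sets of a gene came from the same fit over 24363 probe sets. Figures were drawn with matplotlib 3.10.9.

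The samples' groups came from their titles. The labels' replicate numbers did not pair the arrays: same-numbered arrays' deviations correlated at -0.143 to 0.312 over 15 pairs of groups, above 0.1 in 4. The members, classes and gene lists were chosen with earlier results of these data known, and the signal of 100 that divides dim from bright genes after values were seen. Values on every array are given for tested genes called with a log2 difference of at least 0.5 in 1 comparison or more, and for Col1a1, Col1a2, Col4a1 and Col4a2 on some arrays, chosen after their values were seen. Alternatives were quantile normalization, median centring, trimmed mean scaling, no or a larger pseudocount (21.6), no filter or one at the 75th percentile, each array left out, both IFNa arrays left out, a replicate block, the groups of a contrast alone, array weights, and all tested probe sets. The number of arrays limits the precision.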

Additional observations from a re-analysis of the deposited data

How the results depend on the processing

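The falls of Col3a1, Col8a1, Col5a3 and Col6a1 and the rise of Col5a2 with AMN107 alone were called under each alternative that could be fitted (23 or 24 each), and Col3a1, Col8a1, Col5a2 and Col16a1 with IFNg under all 24. With the replicate block the calls were 11 for AMN107 against DMSO (35.2% of all tested genes called) and 8 for AMN107-IFNa against IFNa (26.3%). They were 5 for AMN107-IFNg against IFNg (18.8%), 5 for IFNa (18.6%, Col8a1 was lost, limma adjusted p = 0.0572) and 2 for IFNg (8.73%). No call changed sign. The cause of the following changes was not tested. AMN107 against DMSO gave 7 with median centring and 6 with a 75th percentile filter. IFNg gave 4 with quantile normalization, 4 with trimmed mean scaling, 1 without a filter, 6 in its groups alone, 5 with array weights and 6 without both IFNa arrays. IFNa gave 3 with the 75th percentile filter, 3 over all probe sets, and 0 in its groups alone or with array weights. AMN107-IFNa against IFNa gave 1 in its groups alone and 2 with array weights. In its groups alone, with array weights and without both IFNa arrays, AMN107-IFNg against IFNg gave 8, 9 and 9, AMN107-IFNg against AMN107 2, 2 and 1, and the interaction with IFNg 2, 2 and 2. Leaving out each array in turn gave 5 to 14 for AMN107 against DMSO, 2 to 11 for AMN107-IFNa against IFNa, 4 to 9 for AMN107-IFNg against IFNg, 0 to 13 for IFNa, 0 to 6 for IFNg, 0 for AMN107-IFNa against AMN107, 0 to 1 for AMN107-IFNg against AMN107, 0 to 13 for the interaction with IFNa and 0 to 2 for that with IFNg. The share of all tested genes called varied between these fits too. A lone array left in a group was assumed to vary like the other groups. Dim probe sets near the median signal have the least precision, and with 2 arrays a group small changes can be missed.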
